A study of Mus musculus with 24 samples.

Results

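The 10 genes described here encode the enzymes that write, copy and remove DNA methylation and the factors that protect it at imprinted loci. They are Dnmt1, Uhrf1, Dnmt3a, Dnmt3b, Dnmt3l, Tet1, Tet2, Tet3, Zfp57 and Trim28, taken by symbol from a list of genes of DNA methylation and imprint maintenance. All 10 were among the 55291 gene symbols of the tables, and all 10 passed the filter for low values that kept 18713 genes. The cells were E14Tg2a, a mouse embryonic stem cell line of 129/Ola origin, in which both the substituted and the control lines carried endogenous CTCF fused to a degron, so that the auxin IAA depletes the protein. CTCF is a zinc finger protein that binds DNA and shapes chromatin loops. A doxycycline-inducible Ctcf transgene, wild type or with 1 of 9 substitutions, replaced it. Total RNA was sequenced from 24 libraries in 12 groups of 2.

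The 9 substitution groups were R339Q, R342C, S354F, K365T, R377C, R377H, Q418R, R448Q and H455R. Each received IAA (500 µM) with doxycycline (1 µg/ml) for 2 days, so that the substituted protein stood in for the depleted one. The control with the same treatment was the wild-type transgene line, named WT ID. The same line given IAA alone, named WT IAA, was depleted of CTCF with no induced transgene, and without either agent it kept its endogenous protein and was named WT untreated. All groups were grown feeder-free on gelatin in medium with 15% serum, LIF and the inhibitors CHIR99021 (3 µM) and PD0325901 (1 µM), a medium that holds stem cells in a naive state. Each substitution was carried by its own line, so the substitution and the line cannot be told apart. Whether both libraries of a group came from different cultures is not stated, so each p-value speaks for the spread between libraries alone, and that spread may be technical.

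DNA methylation in mammals is placed on CpG sites by the de novo enzymes DNMT3A and DNMT3B, with DNMT3L as a cofactor that has no catalytic activity. DNMT1 copies it after replication, guided by UHRF1, and the TET dioxygenases oxidise it as a step towards its removal. Imprinted loci keep methylation on 1 parental allele because ZFP57 binds the methylated allele and brings in TRIM28, a scaffold for heterochromatin enzymes. Naive embryonic stem cells grown with these inhibitors are known for low methylation and low Dnmt3 gene expression.

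Promoter windows of 250 bases upstream of annotated starts are shown for 3 members. Dnmt3b and Tet3 were among those called in the most lines, and Tet2 had the largest rise. Dnmt3a, called in as many lines as Dnmt3b, is not shown. The windows are given because their CpG content is the substrate of the pathway itself. They are RefSeq sequences of the GRCm38.p6 build, written 5′ to 3′ on the gene's strand with every CpG in capitals. For Zfp57 a 30-base stretch is shown in which capitals mark a match to a short form of the CTCF motif, CCA, any 2 bases, AG, any 2 bases and GGC, searched on both strands.

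Dnmt3b, chr2:153649199-153649448, plus strand: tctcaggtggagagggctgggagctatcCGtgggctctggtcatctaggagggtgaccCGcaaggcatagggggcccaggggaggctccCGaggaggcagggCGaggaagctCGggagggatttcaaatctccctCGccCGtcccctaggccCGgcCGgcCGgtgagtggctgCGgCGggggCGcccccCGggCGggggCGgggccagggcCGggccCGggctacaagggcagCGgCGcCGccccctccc
Tet2, chr3:133544391-133544640, minus strand: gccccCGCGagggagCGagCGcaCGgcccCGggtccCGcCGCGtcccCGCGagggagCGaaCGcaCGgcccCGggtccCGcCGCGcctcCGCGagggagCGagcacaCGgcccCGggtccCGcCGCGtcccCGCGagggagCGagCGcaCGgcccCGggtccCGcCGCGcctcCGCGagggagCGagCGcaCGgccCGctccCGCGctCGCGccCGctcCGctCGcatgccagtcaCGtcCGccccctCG
Tet3, chr6:83441679-83441928, minus strand: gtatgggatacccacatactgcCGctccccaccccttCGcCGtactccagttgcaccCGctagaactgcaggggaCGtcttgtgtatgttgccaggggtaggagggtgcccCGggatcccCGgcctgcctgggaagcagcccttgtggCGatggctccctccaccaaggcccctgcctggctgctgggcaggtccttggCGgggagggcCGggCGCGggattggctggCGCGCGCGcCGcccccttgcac
Zfp57, chr17:37002459-37002488, plus strand: cagtgaagaCCAACAGTAGGCgggacgaga

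The Dnmt3b window held 21 CpG, the Tet2 window 51 and the Tet3 window 17, against a median of 6 over all 32851 windows of the same length (quartiles 2 and 16). Other members differed, with 38, 40 and 15 CpG in the windows of Dnmt3a, 5, 4 and 3 in those of Dnmt3l and 6, 7 and 3 in those of Zfp57. The Tet2 and Tet3 windows and the Zfp57 stretch lie inside the annotated spans of their genes, upstream of internal starts. The motif was found in 1 of 19 windows of the members, a Zfp57 window, where it ends 45 bases before an internal start. It was found in 2.067% of all windows (679 of 32851), and a match is a description of the letters, not a bound site. The tables are summed per gene and do not show which start the cells used.

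Recovered read totals ran between 27.8 M and 77.1 M per library (M stands for 1000 × 1000), and mitochondrial genes took 1.22% to 3.38% of them. The summed level of 10 embryonic stem cell markers was 8780 to 11400 TPM (transcript abundance adjusted for gene length and for the total of the library) in all 24 libraries, and none of those markers was under 1 TPM. The fibroblast and feeder list summed to 16.1 to 44.9 TPM, with Dcn, Col1a2, Col3a1 and Postn at or near 0. Ctcf RNA, which counts the endogenous gene and the transgene together and does not report the degraded protein, was at 141 to 284 TPM in the 18 substitution libraries, 141 to 145 TPM in WT IAA, 155 to 160 TPM in WT ID and 125 to 126 TPM in untreated cells. The replicates of R342C and K365T differed from each other the most of all pairs by a chi-square per gene on recovered reads (38.9 and 31.9). That measure grows with read depth, and R342C replicate 1 was the deepest library.

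The members' levels spanned a wide range in TPM. Trim28, the scaffold of the imprint complex, was the highest, with a lowest library of 734.8 TPM, a median of 928.1 TPM and a highest of 1025 TPM. Uhrf1, the recruiter of DNMT1, followed at 579.8, 712.3 and 910.9 TPM. Zfp57, the DNA-binding partner of TRIM28, lay at 192.9, 328.4 and 489.1 TPM, and Dnmt1, the maintenance enzyme, at 140.7, 160 and 194.2 TPM. The maintenance and imprint genes were thus the most abundant 4 of the list by median.

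Of the genes with lower levels, Tet1 was at 90.59, 127 and 154.8 TPM and Tet2 at 74.96, 91.25 and 151.4 TPM. Dnmt3b, a de novo enzyme, was at 30.04, 57.12 and 85.82 TPM, and its cofactor Dnmt3l at 23.36, 48.59 and 146.1 TPM. Tet3, at 8.198, 12.83 and 18.49 TPM, and Dnmt3a, at 6.594, 10.94 and 17.48 TPM, were the lowest by median. Dnmt3l had the widest spread, 6.252-fold between its lowest and highest library, while Dnmt1 spanned 1.38-fold and Trim28 1.395-fold.

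**Figure D1:**
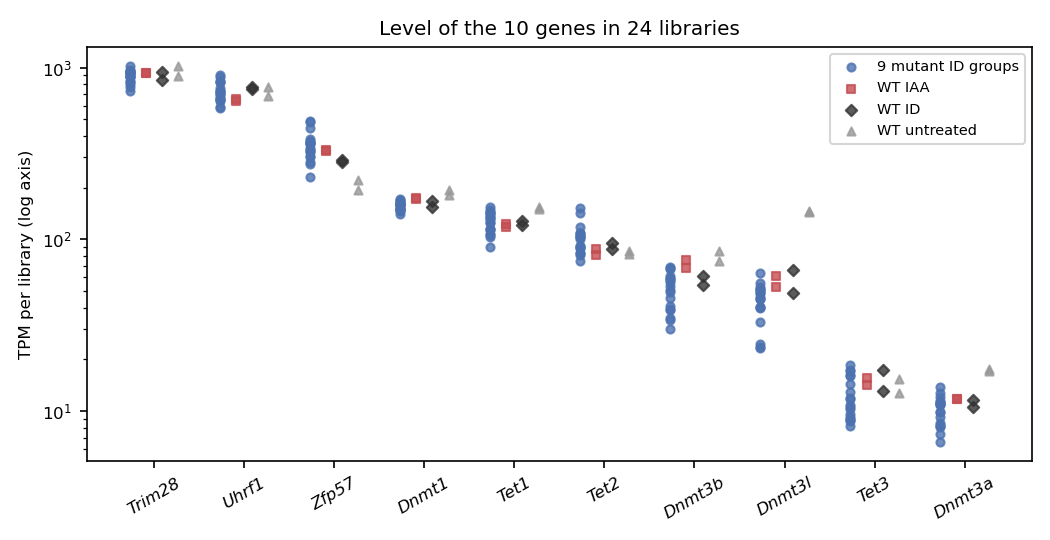
TPM of the 10 members in each of the 24 libraries on a log axis, with 1 point per library and separate colours and symbols for the substitution lines together, WT IAA, WT ID and untreated cells. Trim28 and Uhrf1 sit at the top and Tet3 and Dnmt3a at the bottom, and the untreated libraries lie apart from the rest in Dnmt3l at 144 and 146 TPM.

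Neighbours in the order of the group means mostly overlapped between their libraries. Of the 11 steps between neighbouring groups, the libraries were apart in 5 for Dnmt3a, 3 each for Dnmt1, Dnmt3b, Tet3 and Zfp57, 2 each for Dnmt3l, Uhrf1 and Tet1, 1 for Tet2 and 0 for Trim28. Dnmt3b had 3 separate groups at its low end, with means of 32.0 TPM in R448Q, 36.7 TPM in K365T and 40.0 TPM in R377H. The next were R342C at 50.0 TPM and H455R at 51.9 TPM, and from R342C upward no step separated neighbours. Tet3 was lowest in Q418R (8.48 TPM), then in R339Q (9.09 TPM) and H455R (9.21 TPM), which overlapped, and then in R342C, S354F and R377C at 10.7 to 11.8 TPM. The other 6 groups of Tet3 lay between 14.0 and 17.8 TPM. Tet2 stood apart in 1 group, R448Q, at 147 TPM against 82.1 to 106 TPM in the others.

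For tests, normalized counts of 22 libraries (all but the untreated, which were scaled in a table of their own) were compared on the scale of log2(normalized count + 1) with limma, and a gene was called at a Benjamini-Hochberg adjusted p under 0.05 over all 18713 genes. Against WT ID, 26 of 90 values of the 9 substitution lines were called, 9 higher and 17 lower. Of those 26, 1 was at least 2-fold, Dnmt3l in R377H. By gene, Tet3 was called higher in 1 line and lower in 6, Dnmt3b lower in 4, Dnmt3a higher in 1 and lower in 3, Dnmt3l lower in 2 and Zfp57 higher in 3. Uhrf1 was called higher in 2 and lower in 1, Dnmt1 lower in 1, Tet1 and Tet2 higher in 1 each, and Trim28 in none.

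By line, the members called have to be read against the share of all tested genes called in that comparison. R448Q had 6 of 10 members called against WT ID, 3 higher and 3 lower, where 45.8% of all genes were called in either direction. R377H had 5 of 10, 3 higher and 2 lower, with a background of 25.1%. R339Q had 3, 1 higher and 2 lower (21.5% of all genes called), Q418R likewise 3, 1 higher and 2 lower (25.0%), and R342C 3, all lower (23.3%). K365T had 2, 1 higher and 1 lower (32.0%), H455R 2, both lower (23.1%), S354F 1, lower (9.80%) and R377C 1, lower (8.09%). With 10 members, these counts were near the background in most lines, so what follows concerns which member differed in which line and by how much.

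**Figure D2:**
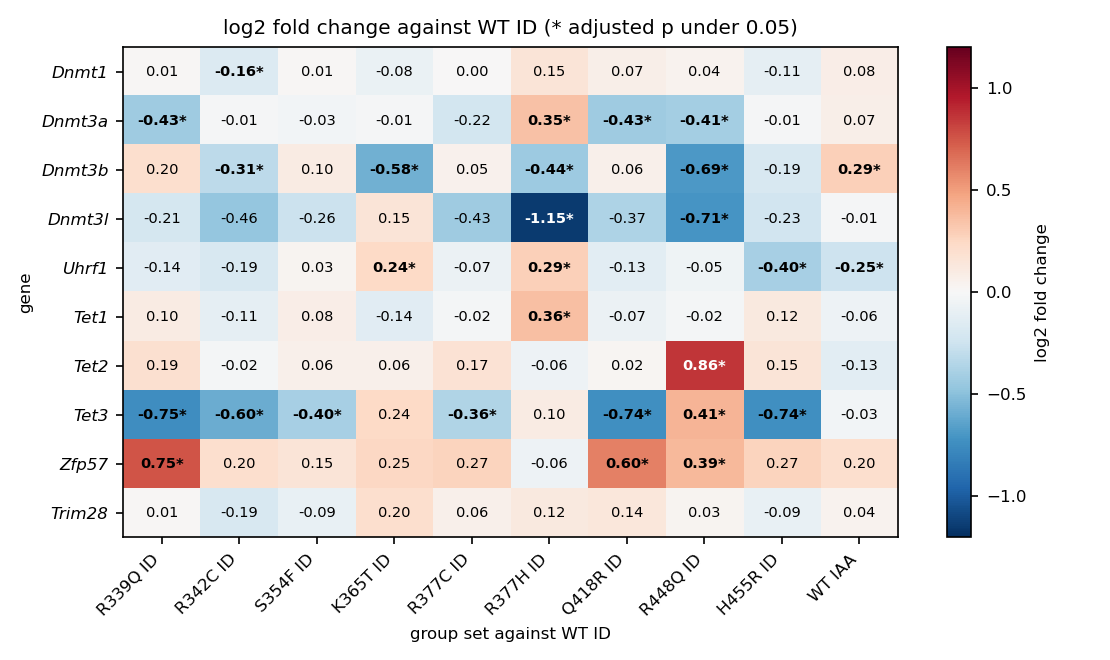
Log2 fold change against WT ID of each member (rows) in the 9 substitution lines and WT IAA (columns), as colour and printed value, with an asterisk and bold type for an adjusted p under 0.05. Tet3 is called lower in 6 lines and higher in R448Q, Dnmt3b is called lower in R342C, K365T, R377H and R448Q, and Trim28 is called in none.

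Of the maintenance pair, Uhrf1 was called against WT ID in 3 substitution lines and Dnmt1 in 1. UHRF1 reads hemimethylated DNA and brings DNMT1 to it. Uhrf1 had 33763 and 31481 normalized counts in H455R, against 42083 and 44116 in WT ID. Both H455R libraries were below both WT ID libraries, and Uhrf1 fell (log2 fold change -0.40 ± 0.08 SE, limma adjusted p = 0.000897), a call that held under every alternative run. It had 49865 and 55279 in R377H and 49037 and 53171 in K365T, above the same 42083 and 44116 in WT ID.

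The Uhrf1 rises were 0.29 ± 0.08 (limma adjusted p = 0.0106) in R377H and 0.24 ± 0.08 (limma adjusted p = 0.0216) in K365T. Neither held throughout. With quantile scaling the R377H value was 0.06 (adjusted p = 0.528) and the K365T value 0.08 (adjusted p = 0.355), and on the TPM scale they were 0.19 (adjusted p = 0.0748) and 0.17 (adjusted p = 0.108). Leaving out R377H replicate 2 or WT ID replicate 1 also ended the R377H call, at adjusted p = 0.144 and 0.0975. Leaving out K365T replicate 2 or WT ID replicate 1 or 2 ended that of K365T, at adjusted p = 0.163, 0.144 and 0.052.

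Dnmt1 had 13987 and 14288 normalized counts in R342C, against 15793 and 15746 in WT ID. The R342C libraries were both lower by a small margin (-0.16 ± 0.06, limma adjusted p = 0.0483), and the call was lost under 12 alternatives. These include quantile scaling (-0.01, adjusted p = 0.922), the TPM scale (-0.06, adjusted p = 0.537) and leaving out any 1 of the 4 libraries. Dnmt1 in R377H, at 17249 and 17811, was above WT ID without passing the test (0.15, 95% interval 0.04 to 0.27, limma adjusted p = 0.0532). With the median of all tested genes of chromosome 9 subtracted, Dnmt1 was called higher in R377H (0.21, limma adjusted p = 0.0122) and in R448Q (0.15, limma adjusted p = 0.0388).

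Of the de novo genes, Dnmt3b was lower in 4 lines and called higher in no substitution line. DNMT3B is the enzyme that methylates, among others, repeats near centromeres and the promoters of germline genes. It had 2293 and 2590 normalized counts in R448Q, 2749 and 2514 in K365T, 2830 and 2966 in R377H and 3078 and 3265 in R342C, against 4011 and 3839 in WT ID. All 8 of those libraries were below both WT ID libraries. The fall was -0.69 ± 0.10 (limma adjusted p = 1.1e-05) in R448Q, -0.58 ± 0.10 (limma adjusted p = 0.000186) in K365T and -0.44 ± 0.10 (limma adjusted p = 0.00256) in R377H, and these 3 calls held under every alternative run.

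In R342C the fall of Dnmt3b was -0.31 ± 0.10 (limma adjusted p = 0.0302). It lost its call on the TPM scale (-0.21, adjusted p = 0.227), with quantile scaling (-0.22, adjusted p = 0.136), without the filter (adjusted p = 0.0728) and when centred on the chromosome median (-0.26, adjusted p = 0.0661). It also lost it without R342C replicate 1 (adjusted p = 0.166), WT ID replicate 1 (adjusted p = 0.151) or WT ID replicate 2 (adjusted p = 0.0885). H455R, at 3123 and 3772 normalized counts, was also below WT ID in both libraries without passing the test (-0.19, limma adjusted p = 0.18).

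Dnmt3a encodes the other de novo enzyme, and it did not follow Dnmt3b. It had 1834 and 1798 normalized counts in R339Q, 1690 and 1947 in Q418R and 2072 and 1642 in R448Q, against 2480 and 2413 in WT ID. All 6 libraries of these lines were below WT ID, with R448Q replicate 2 the lowest of all. The fall was -0.43 ± 0.10 in R339Q (limma adjusted p = 0.00296), -0.43 ± 0.10 in Q418R (limma adjusted p = 0.00237) and -0.41 ± 0.10 in R448Q (limma adjusted p = 0.00162). The R339Q call held under every alternative run, while that of Q418R was lost without Q418R replicate 1 (-0.33, adjusted p = 0.0545) and that of R448Q without R448Q replicate 2 (-0.24, adjusted p = 0.0702).

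Dnmt3a was higher in R377H, at 2995 and 3249 normalized counts against the same WT ID values (0.35 ± 0.10, limma adjusted p = 0.0102). This call was lost on the TPM scale (0.26, adjusted p = 0.103), without R377H replicate 2 (0.29, adjusted p = 0.109) and when WT ID replicate 2 was left out (0.33, adjusted p = 0.069). In R377H, Dnmt3a and Dnmt3b were therefore called in opposite directions, and in R339Q and Q418R Dnmt3a was called lower while Dnmt3b was not called (0.20 in R339Q, limma adjusted p = 0.168). In R448Q both were called lower.

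Dnmt3l, the cofactor without catalytic activity, gave the largest difference of the 26. It had 1033 and 998 normalized counts in R377H, against 2539 and 1998 in WT ID. Both R377H libraries were about equal and far below WT ID, whose own replicates were apart. The fall was -1.15 ± 0.21 (95% interval -1.59 to -0.71, limma adjusted p = 0.000362) and stayed between -1.32 and -0.98 under every alternative run.

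R448Q had 1044 and 1811 normalized counts of Dnmt3l, both below WT ID but far from each other. The fall of -0.71 ± 0.21 (limma adjusted p = 0.00861) rested on R448Q replicate 1, without which it was -0.31 (adjusted p = 0.26), and on WT ID replicate 1, without which it was -0.54 (adjusted p = 0.11). Lower values that did not pass the test stood in R342C (-0.46, 95% interval -0.89 to -0.02, limma adjusted p = 0.123) and R377C (-0.43, limma adjusted p = 0.246). Dnmt3l overlaps Aire on the opposite strand over 1664 bases. Aire averaged 72.7 normalized counts, and whether strand was used in counting is not given in the sources used here.

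**Figure D3:**
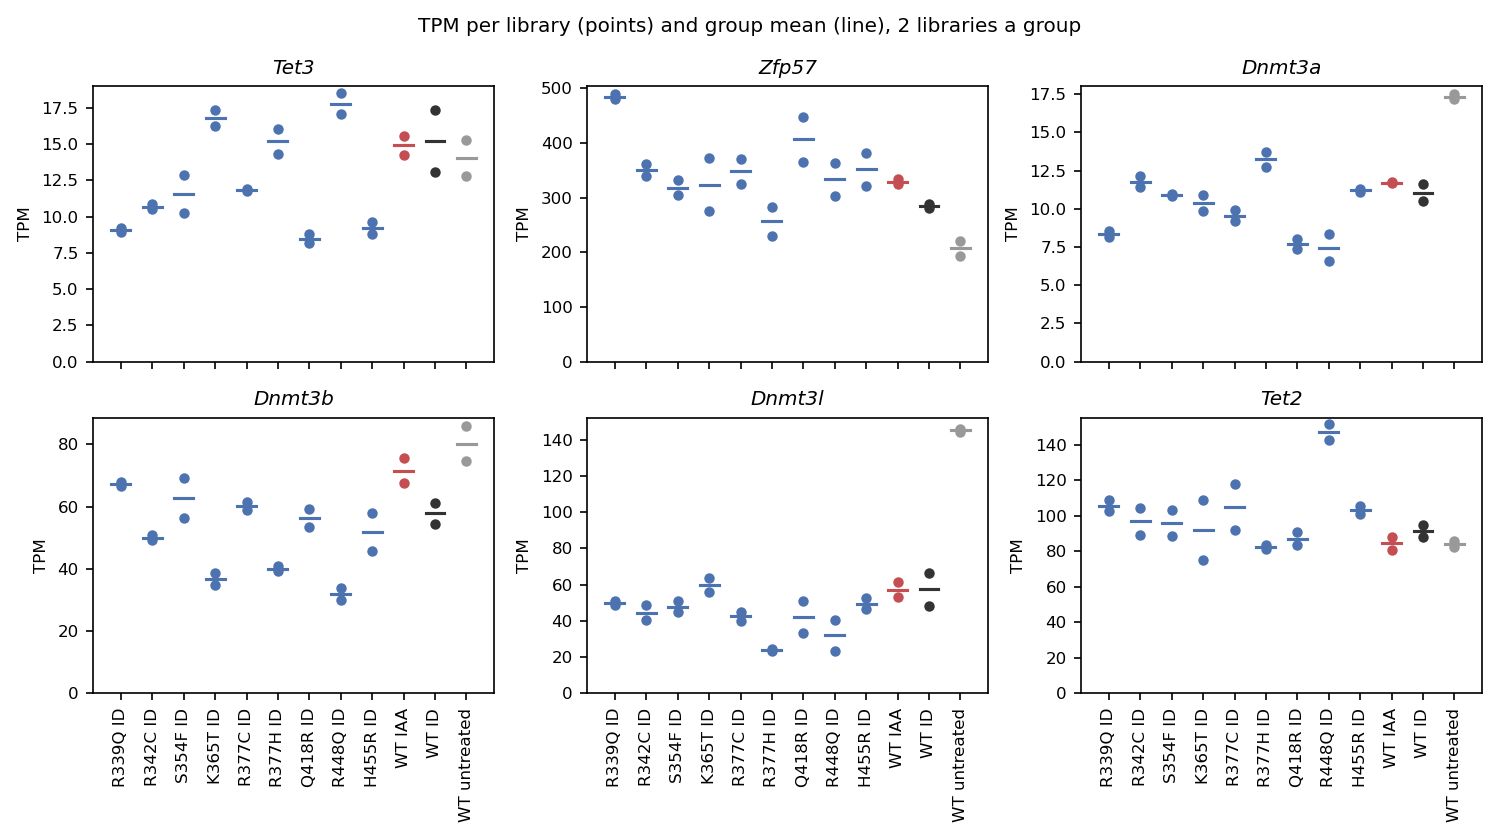
TPM of Tet3, Zfp57, Dnmt3a, Dnmt3b, Dnmt3l and Tet2 in each library (points) with the mean of the 2 libraries of a group (short line), for the 9 substitution lines, WT IAA, WT ID and untreated cells. Dnmt3b is lowest in R448Q, K365T and R377H (means 32.0, 36.7 and 40.0 TPM), Dnmt3l is lowest in R377H and highest in untreated cells, and Tet2 in R448Q (mean 147 TPM) lies above all other groups.

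The TET genes behaved differently from each other. Tet3, the least abundant of the 3 and best known from the oocyte and zygote, was the member called most often. It had 2022 and 1954.5 normalized counts in R339Q, 2155 and 2274 in R342C, 1887 and 2138 in Q418R and 1968 and 2044 in H455R, against 3717 and 3013 in WT ID. These 8 libraries lay in a narrow band, all below both WT ID libraries. The falls were -0.75 ± 0.10 in R339Q (limma adjusted p = 1.99e-05), -0.60 ± 0.10 in R342C (limma adjusted p = 0.000333), -0.74 ± 0.10 in Q418R (limma adjusted p = 1.68e-05) and -0.74 ± 0.10 in H455R (limma adjusted p = 2.09e-05), and all 4 calls held under every alternative run.

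Smaller Tet3 falls were called in S354F, at 2315 and 2761 normalized counts (-0.40 ± 0.10, limma adjusted p = 0.0117), and in R377C, at 2581 and 2623.5 (-0.36 ± 0.10, limma adjusted p = 0.0258). Both lost the call without WT ID replicate 1, the higher of the controls, where they were -0.25 (adjusted p = 0.231) and -0.21 (adjusted p = 0.383). The S354F call was also lost on the TPM scale (adjusted p = 0.0859) and without S354F replicate 1 (-0.28, adjusted p = 0.176). The R377C call was also lost on the TPM scale (adjusted p = 0.144), without the filter (adjusted p = 0.0655) and without either R377C library (adjusted p = 0.121 and 0.119).

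R448Q was the only line in which Tet3 was called higher, at 4614 and 4272 normalized counts (0.41 ± 0.10, limma adjusted p = 0.00199). On the TPM scale the value was 0.24 (adjusted p = 0.144), and without WT ID replicate 2 it was 0.26 (adjusted p = 0.0703). K365T, at 4045 and 3845, was above WT ID in both libraries without passing the test (0.24, 95% interval 0.03 to 0.44, limma adjusted p = 0.0729). Relative to the chromosome 6 median the K365T value was 0.34 and was called (limma adjusted p = 0.016). R377H, at 3380 and 3810, overlapped WT ID (0.10, limma adjusted p = 0.496).

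Tet2 differed in a single line. Its normalized counts were 35999 and 38202 in R448Q, against 19025 and 22068 in WT ID. Both R448Q libraries were above every other library in the table, of which the highest was R377C replicate 1 at 25832. The rise was 0.86 ± 0.12 (95% interval 0.60 to 1.12, limma adjusted p = 1.19e-05) and held under every alternative run.

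Genes of the same chromosome as Tet2 were higher in R448Q as well. The median log2 fold change of all tested genes of chromosome 3 was 0.44 in R448Q against WT ID, and relative to that median the Tet2 value was 0.42 (limma adjusted p = 0.0106). Tet3 in Q418R had a like companion, a median of -0.46 over chromosome 6, and relative to it the Tet3 value was -0.28 (limma adjusted p = 0.0472). The share of chromosome-wide shifts in these differences was not tested beyond this subtraction.

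**Figure D4:**
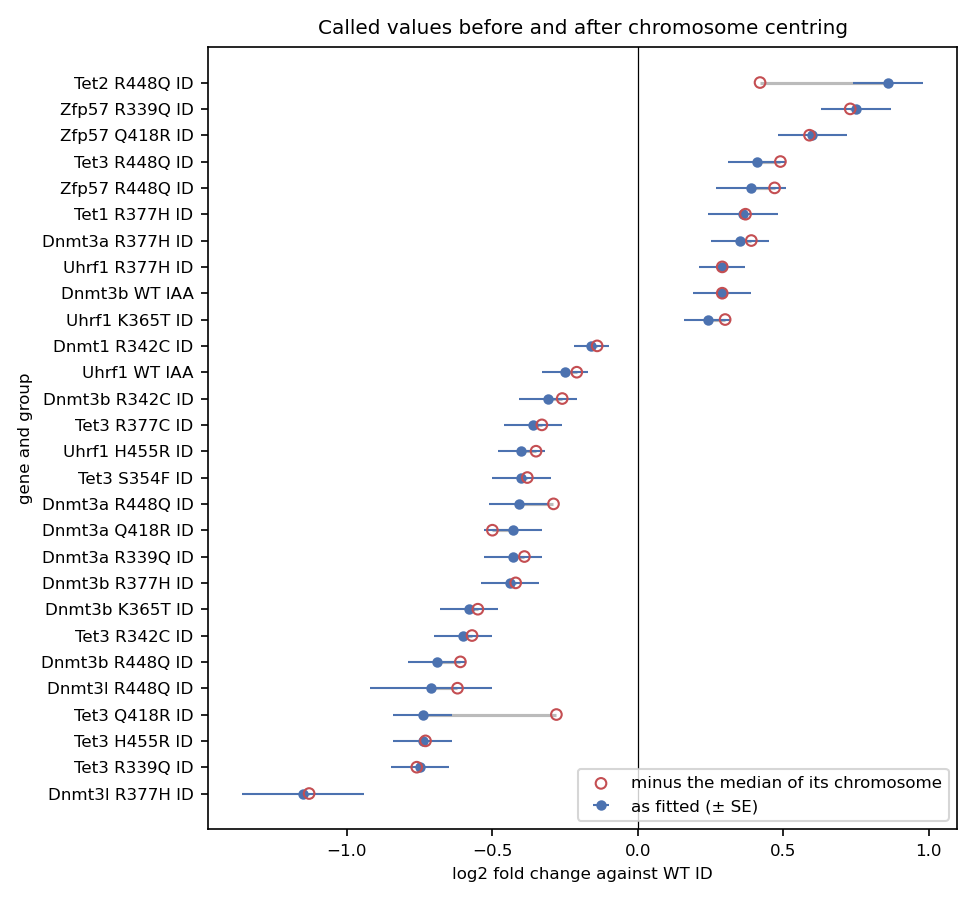
Log2 fold changes against WT ID of the 28 called values (filled points, bars for the standard error) and the same values after the median of all tested genes of the gene's chromosome was subtracted (open circles). Tet2 in R448Q is 0.86 as fitted and 0.42 after subtraction, and Tet3 in Q418R is -0.74 as fitted and -0.28 after subtraction.

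Tet1, the most abundant TET gene by median here, was called in R377H, at 31590 and 34010 normalized counts against 25428 and 25753 in WT ID. Both R377H libraries were the highest of the table. The rise was 0.36 ± 0.12 (limma adjusted p = 0.036), but it lost the call on the TPM scale (0.27, adjusted p = 0.213), with quantile scaling (0.27, adjusted p = 0.136), without the filter (adjusted p = 0.0815) and without any 1 of the 4 libraries (adjusted p = 0.0673 to 0.201).

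Of the imprint factors, Zfp57 was higher in 3 lines and lower in none, and Trim28 was called in none. Zfp57 had 24597 and 23485 normalized counts in R339Q, 23365 and 20166 in Q418R and 17123 and 20602 in R448Q, against 13993 and 14695.5 in WT ID. All 6 libraries were above WT ID, with those of R339Q the highest. The rise was 0.75 ± 0.12 in R339Q (limma adjusted p = 0.000227) and 0.60 ± 0.12 in Q418R (limma adjusted p = 0.00127), and both calls held under every alternative run. In R448Q it was 0.39 ± 0.12 (limma adjusted p = 0.014), and this call was lost on the TPM scale (0.22, adjusted p = 0.221), with quantile scaling (0.23, adjusted p = 0.157), without R448Q replicate 2 (0.26, adjusted p = 0.187) and without WT ID replicate 1 (0.35, adjusted p = 0.0864).

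The 3 lines with more Zfp57, R339Q, Q418R and R448Q, were also those in which Dnmt3a was called lower. Over the 11 group means, Pearson's r between Dnmt3a and Zfp57 was -0.88, given as a description because the groups share the scaling of 1 table. It was the strongest of the correlations between members, and the most positive one was 0.62, between Uhrf1 and Tet3.

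Trim28 values against WT ID ran between -0.19 in R342C (limma adjusted p = 0.129) and 0.20 in K365T (limma adjusted p = 0.0924). Its libraries held 47328 and 39625 normalized counts in R342C and 59283.5 and 55034 in K365T, against 50182 and 48949 in WT ID. The 95% intervals over all lines spanned -0.38 to 0.39. Relative to the chromosome 7 median the K365T value was 0.32 and was called (limma adjusted p = 0.0126). Larger Trim28 differences were called between other groups, -0.30 in S354F against K365T (limma adjusted p = 0.0199) and -0.23 in R342C against WT IAA (limma adjusted p = 0.0441). Each of these calls was lost without at least 1 library. Trim28 overlaps Zbtb45 on the opposite strand over 6137 bases, and Zbtb45 averaged 2150 normalized counts.

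In WT IAA against WT ID, 2 of 10 members were called, 1 higher and 1 lower, where 20.7% of all genes were called. The groups differ in the induced transgene and in doxycycline itself, which cannot be told apart. Dnmt3b had 5045 and 4581 normalized counts in WT IAA, against 4011 and 3839 in WT ID. Uhrf1 had 36448 and 36065 in WT IAA, against 42083 and 44116 in WT ID. In both genes the groups did not overlap. Dnmt3b rose by 0.29 ± 0.10 on the log2 scale (limma adjusted p = 0.0418) and Uhrf1 fell (-0.25 ± 0.08, limma adjusted p = 0.0294), and each call was lost without any 1 of the 4 libraries. Tet3 and Zfp57, which were called in several substitution lines, were not called here. Tet3 had 3407 and 3156 in WT IAA, within the 3717 and 3013 of WT ID, and Zfp57 had 16504 and 16343 in WT IAA, against 13993 and 14695.5 in WT ID (0.20, limma adjusted p = 0.295).

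WT IAA was also used as the control, a comparison chosen after the values were seen. The differences of the substitution lines that held under every alternative against WT ID all had the same direction there. The fall of Uhrf1 in H455R was not called there (-0.15, limma adjusted p = 0.168). Uhrf1 was called higher in R377H (0.53, limma adjusted p = 2.32e-05) and K365T (0.49, 5.45e-05). It was also called by smaller amounts in S354F (0.27, 0.013) and R448Q (0.20, 0.0413), both lost without at least 1 library. Dnmt1 was called lower in R342C (-0.24, limma adjusted p = 0.00174), and this call held without any 1 library. TPM and quantile scaling were not run for it. Dnmt1 was called lower in K365T (-0.16, 0.028) and H455R (-0.20, 0.0129) too, both lost without at least 1 library. Dnmt3a was called lower in R339Q (-0.50, limma adjusted p = 0.0013), Q418R (-0.50, 0.000479) and R448Q (-0.48, 0.000374). By smaller amounts it was called lower in R377C (-0.29, 0.0311) and higher in R377H (0.28, 0.0255), both lost without at least 1 library. Dnmt3b was called lower in 5 lines, by -0.60 in R342C (limma adjusted p = 7.94e-05), -0.87 in K365T (1.51e-06), -0.73 in R377H (9.68e-06), -0.98 in R448Q (1.24e-07) and -0.49 in H455R (0.0012). Tet3 was called lower in R339Q (-0.72, limma adjusted p = 4.55e-05), R342C (-0.57, 0.000131), Q418R (-0.71, 1.7e-05) and H455R (-0.71, 3.13e-05), as well as by smaller amounts in S354F (-0.38, 0.00759) and R377C (-0.33, 0.0174), and it was called higher in R448Q (0.44, 0.00104) and K365T (0.27, 0.0365). The S354F call was lost without WT IAA replicate 1 (adjusted p = 0.0786) or S354F replicate 1 (0.151), the R377C call without WT IAA replicate 1 (0.135) or either R377C library (0.0764 and 0.0758), and the K365T call without any 1 of the 4 libraries. Relative to the chromosome 6 median the Q418R value for Tet3 was -0.24 and not called (limma adjusted p = 0.0777). Dnmt3l was lower in R377H (-1.14, limma adjusted p = 0.000238) and Zfp57 higher in R339Q (0.55, 0.00445). Tet2 was higher in R448Q (0.98, 2.04e-06), or 0.52 relative to the chromosome 3 median (0.00214). Dnmt3l was called lower in R448Q (-0.71, 0.00872) and Tet1 higher in R377H (0.42, 0.0103), both lost without at least 1 library. Zfp57 in Q418R, at 0.40 (limma adjusted p = 0.017), lost its call without Q418R replicate 1 (adjusted p = 0.179), WT IAA replicate 1 (0.0664) or WT IAA replicate 2 (0.0811), and Zfp57 in R339Q lost it without R339Q replicate 1 (0.0519).

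The members called in those comparisons were 3 higher and 3 lower in R448Q (46.8% of all genes called) and 3 higher and 2 lower in R377H (37.0%). K365T had 2 higher and 2 lower (40.8%), R342C 0 higher and 4 lower (43.3%), H455R 0 higher and 3 lower (25.6%), R339Q 1 higher and 2 lower (15.7%) and Q418R 1 higher and 2 lower (31.7%). S354F had 1 higher and 1 lower (27.5%) and R377C 0 higher and 2 lower (25.0%). These comparisons share the substitution libraries with those against WT ID, so the 2 sets are not independent.

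Untreated cells were described in TPM, since their normalized counts were scaled separately, and the median of all genes was shifted by 0.19 on the log2 scale. Their libraries were deposited apart from the others, and whether they were prepared together is not stated. The treatment and the set of libraries therefore cannot be told apart in what follows. WT ID also differs from untreated cells in IAA, doxycycline and the induced transgene at once. A test on the recovered reads of all 24 libraries with edgeR was added after the values were seen. Dnmt3l showed the largest difference, with 66.164 and 48.444 TPM in WT ID and 61.239 and 53.068 TPM in WT IAA, against 144.386 and 146.088 TPM in untreated cells. The log2 ratio was -1.34 for either treatment, or -1.53 for WT ID and -1.54 for WT IAA relative to the shift of all genes. Dnmt3l was lower in WT ID (-1.52, edgeR adjusted p = 4.29e-06) and in WT IAA (-1.52, edgeR adjusted p = 2.6e-06), with the wild-type transgene induced as well as without it.

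Dnmt3a was lower too, at 11.602 and 10.5 TPM in WT ID and 11.664 and 11.722 TPM in WT IAA, against 17.193 and 17.483 TPM in untreated cells (-0.65 and -0.56, or -0.84 and -0.76 relative to the shift). By reads it was -0.82 in WT ID (edgeR adjusted p = 7.17e-07) and -0.75 in WT IAA (edgeR adjusted p = 1.45e-06). Zfp57 was at 287.779 and 281.158 TPM in WT ID and 332.984 and 325.466 TPM in WT IAA, against 220.962 and 192.92 TPM in untreated cells (0.46 and 0.67, or 0.27 and 0.48 relative to the shift). By reads it was called in WT IAA (0.50, edgeR adjusted p = 0.00193) and not in WT ID (0.29, edgeR adjusted p = 0.0574). Dnmt3b was at 61.163 and 54.465 TPM in WT ID, against 85.82 and 74.686 TPM in untreated cells (-0.47), while WT IAA overlapped the untreated libraries. By reads Dnmt3b was -0.64 in WT ID (edgeR adjusted p = 2.08e-05) and -0.34 in WT IAA (edgeR adjusted p = 0.00612), the second call lost without WT IAA replicate 2 or untreated replicate 1. Tet3, Uhrf1 and Trim28 overlapped between WT ID and untreated cells.

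The libraries did not overlap for 7 of 10 members in WT ID against untreated cells, where that held for 70.2% of all genes, and for 6 of 10 in WT IAA against untreated cells, where it held for 74.0%. Both counts are near the background. The edgeR test called 6 of 10 members in WT ID against untreated cells, all lower, where 40.5% of all genes were called, and 8 of 10 in WT IAA against untreated cells, 1 higher and 7 lower, where 45.7% were called. Of these, Trim28 lost its call in both comparisons and Tet1 that in WT ID when 1 library was left out. Dnmt1 was lower than in untreated cells in WT ID (-0.40, edgeR adjusted p = 6.46e-06) and in WT IAA (-0.31, edgeR adjusted p = 8.96e-05). In WT IAA, Uhrf1 (-0.35, edgeR adjusted p = 0.00067) and Tet1 (-0.52, edgeR adjusted p = 0.00125) were lower too. Beside the Dnmt3 values, the summed level of formative and primed pluripotency markers was 42.2 to 51.4 TPM in WT ID and 58.9 to 60.9 TPM in WT IAA, against 148 to 153 TPM in untreated cells. Lefty2 gave most of that range and Fgf5 was at or near 0, and the part of these cells in the Dnmt3 values was not tested. In bulk RNA, fewer cells of a type and less RNA per cell cannot be told apart.

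R377C and R377H change the same arginine to cysteine and to histidine, and the lines differed in 6 of 10 members, 2 higher and 4 lower in R377C, where 19% of all genes were called. Dnmt3a had 1991 and 2204 normalized counts in R377C, against 2995 and 3249 in R377H (-0.57 ± 0.10, limma adjusted p = 0.000215). Dnmt3b had 4080 and 4028 in R377C, against 2830 and 2966 in R377H (0.48 ± 0.10, limma adjusted p = 0.00157). These libraries were apart in both genes and in opposite directions, and both calls held under every alternative run.

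Tet3 was lower in R377C than in R377H (-0.46 ± 0.10, limma adjusted p = 0.00213), as were Uhrf1 (-0.36 ± 0.08, 0.00277) and Tet1 (-0.37 ± 0.12, 0.0368), while Dnmt3l was higher (0.72 ± 0.21, 0.0203). Dnmt3l and Tet1 lost the call without any 1 of the 4 libraries, and Tet1 also with quantile scaling (-0.23, adjusted p = 0.234) and on the TPM scale (-0.27, adjusted p = 0.236). Tet3 lost it without R377H replicate 2 (adjusted p = 0.0523) and on the TPM scale (-0.36, adjusted p = 0.0691). Uhrf1 lost it without R377C replicate 1 (adjusted p = 0.0696) or R377H replicate 2 (adjusted p = 0.0625) and with quantile scaling (-0.14, adjusted p = 0.121). The differences of the other 4 members did not pass the test.

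Other pairs of lines change residues of the same zinc finger, and these were compared after the values were seen. R339Q and R342C differed in 4 members, 3 higher and 1 lower in R339Q (26.7% of all genes called). Dnmt3b had 4704 and 4323 normalized counts in R339Q, against 3078 and 3265 in R342C (0.51, limma adjusted p = 0.00105), and Zfp57 had 24597 and 23485 in R339Q, against 15234 and 17725 in R342C (0.55, limma adjusted p = 0.00298). Dnmt3a was lower in R339Q (-0.42, limma adjusted p = 0.00322). Tet3, in contrast, was low in both lines.

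S354F and K365T differed in 4 members, 1 higher and 3 lower in S354F (28.2% of all genes called). Dnmt3b had 3892 and 4532 normalized counts in S354F, against 2749 and 2514 in K365T (0.68, limma adjusted p = 5.29e-05), and Tet3 had 2315 and 2761 in S354F, against 4045 and 3845 in K365T (-0.64, limma adjusted p = 8.02e-05). R448Q and H455R differed in 6 members, 4 higher and 2 lower in R448Q (44.6% of all genes called). Tet3 showed the widest gap of any member in the 4 pairs of lines compared, 4614 and 4272 in R448Q against 1968 and 2044 in H455R (1.15, limma adjusted p = 1.78e-08), and Dnmt3b was lower in R448Q (-0.49, limma adjusted p = 0.000394).

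The wider pathway was described with lists of genes that work with the members, by counts and medians only. The germline genes with CpG-rich methylated promoters, a class that DNA methylation keeps silent in somatic and stem cells, were all tested (22 of 22). Called higher were 16 in K365T (median log2 fold change over the list 1.07), 15 in R377H (0.94) and 15 in R448Q (1.26), with 2, 0 and 3 called lower. Of all tested genes, 17.7% were called higher in K365T, 14.4% in R377H and 22.8% in R448Q. With 1 library left out, the germline genes lower were 0 to 1 in K365T and 1 to 2 in R448Q. The lines with fewer were R377C with 10 higher (4.67% of all tested genes called higher), H455R with 9 (12.6%) and Q418R with 6 (11.2%). R339Q, R342C and S354F had 8 each (11.8%, 10.0% and 5.49%), and WT IAA had 4 (9.96%). Among these lines Dnmt3b was called lower in R342C only, and it was 0.05 in R377C and 0.10 in S354F. Without any 1 library, the counts higher were 13 to 16 in K365T, 11 to 13 in R377H, 14 to 15 in R448Q and at most 11 in the other lines. The smaller counts were less firm. R339Q had 5 without either of its own libraries, 4 when WT ID replicate 1 was out and 5 when WT ID replicate 2 was, and S354F had 5 without its replicate 2 and 4 without WT ID replicate 1. R377C had 5 without its replicate 2, H455R 5 without WT ID replicate 2, and WT IAA 2 without WT ID replicate 2.

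K365T, R377H and R448Q, the 3 lines with the most germline genes higher, were also the 3 in which the fall of Dnmt3b held under every alternative. They were the 3 lines with the most genes called overall as well, 5979 in K365T, 4696 in R377H and 8578 in R448Q. Q418R was close behind R377H with 4677, and it had the fewest germline genes higher of the 9 lines. A tie of the germline counts to Dnmt3b or to the overall number was not tested and cannot be drawn from these data. The relation is a description over 10 groups that share WT ID, and R342C, with a smaller Dnmt3b fall, had 8 germline genes higher and 1 lower. Asz1, a piRNA pathway gene, averaged 66.36 normalized counts in K365T, 18.66 in R377H and 24.99 in R448Q, against 4.701 in WT ID (3.56, 1.79 and 2.19, limma adjusted p = 2.93e-05, 0.0135 and 0.00152). Tuba3b, a tubulin gene of the testis, averaged 240.9 in K365T, 271.1 in R377H and 95.81 in R448Q, against 28.72 in WT ID (3.04, 3.21 and 1.73, limma adjusted p = 1.98e-06, 8.63e-07 and 0.000327). Brdt, a bromodomain gene of the testis, did not follow this pattern, since it was higher in all 9 lines, between 0.48 in H455R (limma adjusted p = 0.0225) and 2.36 in Q418R (limma adjusted p = 1.74e-09), and 0.73 in WT IAA (limma adjusted p = 0.00141).

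**Figure D5:**
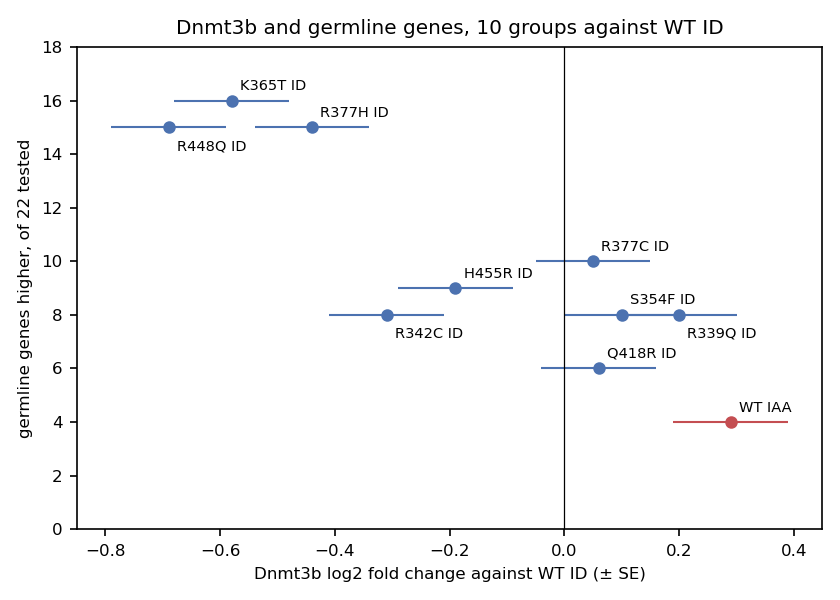
Number of the 22 germline genes called higher against WT ID (vertical axis) by the Dnmt3b log2 fold change of the same comparison (horizontal axis, bars for the standard error), 1 point for each of the 9 substitution lines and WT IAA. K365T, R377H and R448Q lie at the left with 16, 15 and 15 genes, and R342C lies between them and the rest in Dnmt3b with 8 genes.

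Imprinted genes, the class that ZFP57 and TRIM28 protect, had 41 of 49 listed members tested. Those called were 13 higher and 14 lower in K365T, 12 higher and 15 lower in R448Q and 12 higher and 10 lower in R377H, with list medians of -0.03, -0.11 and 0.15, so the genes moved in both directions. That is 65.9%, 65.9% and 53.7% of the genes tested in the list, against 32.0%, 45.8% and 25.1% of all genes in K365T, R448Q and R377H. Without WT ID replicate 2 the genes higher in K365T were 8, and without R377H replicate 2 the genes lower in R377H were 6. Peg3, a paternally expressed zinc finger gene, averaged 490 normalized counts in R339Q, 508 in Q418R and 756.1 in R342C, against 4037 in WT ID (-3.00, -2.94 and -2.38, limma adjusted p = 4.15e-09, 3.02e-09 and 1.49e-07). It was higher in H455R, at 7441 (0.92, limma adjusted p = 0.0015), and in R377H, at 6061 (0.63, limma adjusted p = 0.0195). It was lower in K365T too, at 868.6 (-2.17, limma adjusted p = 1.11e-07). The WT ID libraries were themselves far apart for Peg3, with a standard deviation of 1410 around the mean of 4037. The rises in H455R and R377H are the least firm for that reason. R339Q and Q418R, the lines with the least Peg3, were those with the most Zfp57, while in R342C and K365T Zfp57 was not called.

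Meg3, a maternally expressed long RNA, averaged 973.6 normalized counts in S354F, 2930 in K365T, 5119 in R377H and 5064 in R448Q, against 10130 in WT ID. The falls were -3.40, -1.79, -1.06 and -1.0 (limma adjusted p = 6.78e-08, 2.87e-05, 0.00436 and 0.00327). Mirg, of the same maternally expressed cluster, was lower in the same 4 lines (-3.24 in S354F, limma adjusted p = 2.55e-07). Neither Zfp57 nor any Dnmt gene was called in S354F.

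Heterochromatin partners of ZFP57 and TRIM28 had 19 of 20 members tested, and in R342C 0 were higher and 12 lower (63.2% of the list against 23.3% of all genes). That count rested on single libraries, since 6 were called lower once WT ID replicate 1 was left out, 4 once WT ID replicate 2 was, 7 once R342C replicate 1 was, and 4 on the TPM scale. Examples in R342C were Trim24 (-0.48) and Cbx1 and Cbx3, which encode the HP1 proteins beta and gamma (-0.33 each). Cofactors of de novo and maintenance methylation (13 of 14 tested) were 1 higher and 6 lower in R342C (53.8% of the list), with 3 lower once R342C replicate 1 or WT ID replicate 2 was left out. Lig1, the replication ligase that helps recruit UHRF1, averaged 7610 normalized counts in R342C, against 13190 in WT ID (-0.79, limma adjusted p = 1.82e-07). Cdca7l was the gene of that list called higher, at 543.7 in R342C against 312.1 in WT ID (0.80, limma adjusted p = 0.00055).

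Partners of the TET enzymes in oxidation and base excision repair (14 of 15 tested) were 2 higher and 7 lower in R448Q, 64.3% of the list against 45.8% of all genes, with a list median of -0.45. Among the lower were Idh2 (-0.98), Gadd45a (-0.93) and Gadd45b (-0.75). Genes of methyl donor metabolism, all 14 tested, were 6 higher and 2 lower in R448Q (57.1% of the list against 45.8% of all genes, with 4 higher and 4 lower on the TPM scale and 1 lower without any 1 library). They held Mat2a (0.69), which makes S-adenosylmethionine, and Ahcy (0.43) among the higher and Gnmt (-1.75) among the lower. Readers of methylated DNA (8 tested) were 2 higher and 4 lower in Q418R (75% of the list against 25.0% of all genes, with 2 lower once WT ID replicate 1 was left out), with Mbd2 (0.48) higher and Mbd4 (-0.66) lower.

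Regulators of these genes in stem cells (18 of 19 tested) were 10 higher and 1 lower in R448Q, 9 higher and 1 lower in Q418R, 8 higher and 0 lower in K365T and 7 higher and 1 lower in WT IAA. H455R had 7 higher and 2 lower. Those called were 61.1% of the list in R448Q, 55.6% in Q418R, 44.4% in K365T and 50% in H455R, against 45.8%, 25.0%, 32.0% and 23.1% of all genes. For WT IAA it was 44.4% of the list against 20.7% of all genes. Those higher were 4 in Q418R once Q418R replicate 2 was left out and 5 once WT ID replicate 2 was, 4 to 5 in H455R with 1 library left out, and 4 in WT IAA once replicate 2 of either group was. Dppa3, whose protein displaces UHRF1 from chromatin, averaged 6181 normalized counts in R377H, against 971.6 in WT ID (2.67, limma adjusted p = 1.74e-06), and 1930 in R377C, against the same 6181 in R377H (-1.71, limma adjusted p = 0.000355). Klf2 (0.97) and Zfp42 (0.90), genes of naive pluripotency, were higher in R448Q. Zscan4d (1.98), a gene of the 2-cell-like state, was higher there too. The summed level of the 2-cell-like list was 8.39 to 11.1 TPM in WT IAA, 8.73 to 10.7 TPM in H455R and 3.46 to 12.5 TPM in Q418R, against 0.714 to 2.39 TPM in WT ID, and its part in the members' values was not tested.

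Genes with the pattern most like each member were named by Pearson's r of the mean log2 values over the 11 groups of the shared table, among 12400 candidates. For Tet3 these were Zcchc2 (0.965), Srm (0.957) and Mrgbp (0.932), and for Dnmt3b Insyn2a (0.952), Zfp169 (0.924) and Pick1 (0.922). Tet2 was followed most closely by Gng5 (0.98), Myom1 (0.969) and Tubgcp3 (0.967). Dnmt3a had Ddx19b (0.94) as its nearest, Dnmt3l Fgf10 (0.932), Uhrf1 Glod4 (0.934), Zfp57 Klhl3 (0.905), Dnmt1 C2cd3 (0.911), Tet1 Tafa4 (0.853) and Trim28 Snrpd2 (0.957). With so many candidates and 11 groups, these values describe the tables only.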

How the data were processed

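Gene-level values of 24 total RNA libraries were used. The authors deposited normalized counts (a signal scaled by 1 size factor per library) and TPM, each split over a table of the 22 treated libraries and another holding the 2 untreated ones. The deposited TPM values are scaled by gene length. Per the submitters' processing notes, the build was mm10 and the tools were DESeq2, STAR and Trim Galore, while the read counter, its annotation and its use of strand are not given here. In every library 100% of the values were whole reads within 0.001, so read totals were recovered. Locations for 53180 symbols came from GENCODE M21.

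The log2(normalized count + 1) values of the 18713 genes whose mean reached 10 were fitted with limma 3.58.1 in R 4.3.3 (lmFit and eBayes with trend, 1 coefficient per group, 11 residual and 8.13 prior degrees of freedom). Tests were two-sided and adjusted by Benjamini-Hochberg within a comparison. Scripts were tested on simulated data. Alternatives were edgeR 4.0.16 and DESeq2 1.42.0 on recovered reads, TPM, quantile scaling, another offset or filter, the 2 groups alone, a replicate block, chromosome-centred values and each library left out. Pairs of lines substituted in the same zinc finger, comparisons with WT IAA, an edgeR test of untreated cells on recovered reads and list counts without each library were added after the data were seen. Numbers after ± are standard errors for log2 values. The members and lists were chosen with earlier results of these data known. Every member was named; from each other list the rule took up to 4 called genes with the largest absolute log2 fold change in the comparison with the most calls, and some of their values in other comparisons were chosen for print after they were seen. For each member it took the genes most like it. A gene that the rule names is not reported here.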

Additional observations from a re-analysis of the deposited data

Results flagged for a closer look

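Differences between lines that carry substitutions of the same residue or the same zinc finger were picked out because 2 substitutions compared with the same WT ID control gave different values and the difference itself passed the test. No group had enough libraries to look for a single library far from the others. All values are log2 differences from limma, and the line and the substitution cannot be told apart in any of them.

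In R377C against R377H the differences were -0.57 for Dnmt3a, 0.48 for Dnmt3b, 0.72 for Dnmt3l, -0.37 for Tet1, -0.46 for Tet3 and -0.36 for Uhrf1. In R339Q against R342C they were 0.16 for Dnmt1, -0.42 for Dnmt3a, 0.51 for Dnmt3b and 0.55 for Zfp57. The Dnmt1 call (limma adjusted p = 0.0359) was lost without any 1 of the 4 libraries.

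For S354F against K365T the differences were 0.68 for Dnmt3b, -0.64 for Tet3, -0.30 for Trim28 and -0.22 for Uhrf1. The Trim28 call (limma adjusted p = 0.0199) was lost without S354F replicate 1 (adjusted p = 0.214) or K365T replicate 1 (0.113), and the Uhrf1 call (limma adjusted p = 0.0418) without S354F replicate 1 (0.261) or K365T replicate 2 (0.249).

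For R448Q against H455R they were 0.15 for Dnmt1, -0.40 for Dnmt3a, -0.49 for Dnmt3b, 0.71 for Tet2, 1.15 for Tet3 and 0.35 for Uhrf1. Relative to the chromosome 3 median, Tet2 differed by 0.22 and was not called (limma adjusted p = 0.162). The Dnmt1 call (limma adjusted p = 0.0317) was lost without any 1 of the 4 libraries, and that of Dnmt3a without R448Q replicate 2 (-0.23, adjusted p = 0.0802).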

How the results depend on the processing

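Of 34 called values (26 of substitution lines and 2 of WT IAA against WT ID, and 6 of R377C against R377H), 15 held under every alternative and 19 were lost without at least 1 library. The number of members called in a comparison was compared with the main count, which was 2 for WT IAA, 3 for R342C, 1 for S354F, 2 for K365T, 1 for R377C and 5 for R377H. On the TPM scale it was 1 for WT IAA, R342C and K365T, 0 for S354F and R377C and 2 for R377H. With quantile scaling it was 1 for R342C and K365T and 3 for R377H. Without the filter it was 1 for WT IAA and R342C and 0 for R377C. From the 2 groups alone it was 1 for K365T and 3 for R377C, and with chromosome-centred values 1 for WT IAA and R342C and 4 for K365T. With 1 library left out the count was 0 for WT IAA in each case, 3 for R339Q in each case, 1 to 2 for R342C, 0 to 1 for S354F, 1 to 3 for K365T, 0 to 1 for R377C, 2 to 4 for R377H, 2 to 4 for Q418R, 4 to 5 for R448Q, 2 for H455R in each case and 2 to 5 for R377C against R377H. Calls lost and gained were 13 and 3 on the TPM scale, 8 and 4 with quantile scaling, 1 and 0 with edgeR, 0 and 3 with DESeq2, 1 and 0 with an offset of 10, 7 and 0 without the filter, 0 and 2 with a filter of 50, 2 and 6 from the 2 groups alone and 3 and 5 with chromosome-centred values. Replicate numbers did not pair samples (correlations of deviations in 55 group pairs -0.248 to 0.382, 10 over 0.1), and with the replicate block 1 call was lost (Dnmt1 in R342C, adjusted p = 0.051). The direction turned for Tet2 in WT ID against untreated cells, -0.0479 with TMM scaling of reads and 0.12 in TPM, and for Trim28 in R448Q, -0.31 (adjusted p = 0.00396) with quantile scaling and 0.03 in the main test (-0.14 in TPM, 0.21 chromosome-centred, neither called), and 84 further sign changes were among values called in neither setting. The TPM scale moved the median of all genes by -0.17 in R448Q and 0.11 in R377C against R377H, and the share of higher calls over all genes was 42.7% there and 55.4% in the main test for K365T, 26.3% and 44.6% for Q418R, 70.2% and 42.9% for R342C, 40.4% and 57.4% for R377H, 31.2% and 49.7% for R448Q and 64.3% and 41.5% for R377C against R377H. The cause of these changes was not tested. List counts were recomputed without each library after the data were seen, and 29 of 264 moved over 1.5 times.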
